A study of Mus musculus with 12 samples.

Results

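The genes described here serve the motility of the outer hair cells of the cochlea and the efferent synapse on them. They were taken by name from the deposited table of 37432 genes, and 8 genes, *Slc26a5*, *Ocm*, *Chrna9*, *Chrna10*, *Ikzf2*, *Kcnma1*, *Kcnn2* and *Lmo7*, make up the set. Each of the 8 passed the filter on low values, as did 16215 genes in all. The libraries were RNA-seq of the 3 turns of the cochlea, apical, middle and basal, from mice at P14, and the question behind them is what a defect of gap junctions does to inner ear cells. Wild-type males and males homozygous for the 35delG mutation of *Gjb2*, the gene of a gap junction protein, were compared, with 2 biological repeats of each genotype and turn and 12 libraries in total. The labels give the homozygous genotype as KO. The homozygous mice, of a nearly C57BL/6J background, came from 35delG/35delG embryonic stem cells through tetraploid complementation, were taken by cesarean section and raised by ICR foster mothers. The wild-type mice were bought at an equal age. Origin and genotype cannot be told apart in these comparisons. How many mice or cochleae went into a library is not given in the sources used here. The p-values thus rest on a spread between repeats that is pooled over the 6 groups and may in part be technical.

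Outer hair cells amplify sound by changing their length. The motor of this movement is prestin, encoded by *Slc26a5*, which sits in the lateral membrane. Oncomodulin, encoded by *Ocm*, is a small calcium-binding protein that outer hair cells hold at a high level. Fibers from the brainstem end on these cells and release acetylcholine, which opens receptors built of the subunits encoded by *Chrna9* and *Chrna10*. The calcium that enters opens the SK2 potassium channel encoded by *Kcnn2*, and in some outer hair cells the BK channel encoded by *Kcnma1*, and the cell is inhibited. *Ikzf2* encodes Helios, a transcription factor of the Ikaros family that maintains outer hair cell identity. *Lmo7* encodes a LIM domain protein of actin-rich structures that is found in the cuticular plate of hair cells. *Kcnma1*, *Kcnn2*, *Lmo7* and *Ikzf2* are also transcribed in other cells.

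The sequences before the start sites of the motor gene and of both receptor genes are shown because these starts match the deposited table. Helios, itself a member, belongs to a family that recognizes a short core. The 3 members varied together across the libraries, and so did *Ocm*, which is not shown. Its Pearson's r was 0.93 with *Slc26a5*, 0.90 with *Chrna9* and 0.96 with *Chrna10*. RefSeq promoters were found for 6 of the 8 members, and for 3 of them the start site was that of the deposited table. *Slc26a5* lies on the minus strand of mm10 (GRCm38) at chr5:21810655-21865604 and has 20 exons and 2232 coding nt in its principal transcript. *Chrna9* lies on the plus strand at chr5:65967124-65977326 with 5 exons and 1437 coding nt. *Chrna10* lies on the minus strand at chr7:102111266-102116713 with 5 exons and 1341 coding nt. The 250 bases before each start, read 5′ to 3′ on the strand of the gene from RefSeq (GRCm38.p6), lie upstream of the transcript at chr5:21865605-21865854 for *Slc26a5*, at chr5:65966874-65967123 for *Chrna9* and at chr7:102116714-102116963 for *Chrna10*. Capitals mark the Ikaros family core GGGAA, searched on both strands, so that TTCCC is the same core on the other strand.
Slc26a5: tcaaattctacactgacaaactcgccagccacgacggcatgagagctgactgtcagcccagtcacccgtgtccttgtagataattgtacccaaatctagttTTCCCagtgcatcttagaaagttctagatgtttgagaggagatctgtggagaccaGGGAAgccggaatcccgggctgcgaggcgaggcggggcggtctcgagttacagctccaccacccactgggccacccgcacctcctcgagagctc
Chrna9: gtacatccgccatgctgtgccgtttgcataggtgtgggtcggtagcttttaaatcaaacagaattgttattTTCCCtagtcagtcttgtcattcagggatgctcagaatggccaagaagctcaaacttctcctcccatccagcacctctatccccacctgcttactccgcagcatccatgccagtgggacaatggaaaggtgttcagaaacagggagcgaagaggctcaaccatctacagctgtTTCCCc
Chrna10: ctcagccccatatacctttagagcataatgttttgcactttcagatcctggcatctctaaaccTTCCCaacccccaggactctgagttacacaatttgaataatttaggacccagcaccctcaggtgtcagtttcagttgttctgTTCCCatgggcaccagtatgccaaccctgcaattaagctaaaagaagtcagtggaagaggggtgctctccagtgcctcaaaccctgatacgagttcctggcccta
Each of these 3 windows held 2 matches. The RefSeq windows of *Ocm* and *Kcnma1*, whose start sites differ from those of the deposited table, held 0. Those of *Lmo7* held 3 and 2. The core was found in 56.2% of the 32851 promoters of the same length, so it is common. The matches describe the letters and do not show binding.

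Levels are given as scaled FPKM, which are fragment numbers corrected for transcript length and library size and then divided by a factor per library, and a value of 0 is reported as listed at 0. The sequencing depth behind these values is unknown. Some libraries stood apart in their tissue content before any member was compared. *Otof*, the otoferlin gene of inner hair cells, was at 0.0982 and 0.109 in the homozygous basal libraries against 9.42 to 61.7 in the other 10 libraries. *Pou4f3*, a transcription factor of all hair cells, was listed at 0 and at 0.439 there. The summed level of 11 spiral ganglion neuron markers was 3882 to 3919 in these libraries, 2299 to 2943 in the wild-type middle turn and 44.1 to 924 in the wild-type basal turn. The summed level of Schwann cell and myelin markers was 9159 to 14485 in the homozygous basal turn and 804 to 805 in the homozygous middle turn. Bone markers also differed between repeats, with sums of 298 and 2269 in the wild-type basal turn. *Coch*, which marks the spiral ligament and limbus, was present in each library, between 425 in 1 homozygous basal library and 5470 in 1 homozygous middle library. Other genes of the lateral wall were not evenly present. *Kcne1*, which encodes a potassium channel subunit of the stria vascularis, was at 36.0 and 121 in the homozygous apical turn and at 47.0 and 68.9 in the homozygous middle turn, against at most 0.431 in the wild-type apical and middle libraries. Among basal libraries it was listed at 0 in 1 repeat of each genotype and was at 60.8 and 35.9 in the other wild-type and homozygous repeat. *Kcnq1*, of the same channel, and *Tyr*, a gene of pigment cells, split in the same way between genotypes in the apical and middle turns, whereas *Pou3f4* did not. The median change of these 5 stria and spiral ligament markers was 3.46 (apical) and 2.89 (middle) on the log2 scale, with none called and 3 at an unadjusted p under 0.05 in each. *Gjb2* itself ranged from 58.6 in a homozygous basal library to 451 in a homozygous middle library and was not called between genotypes in any turn, and FPKM do not show which allele was read. The part of tissue content in the results below was not tested.

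In the wild-type apical turn, *Slc26a5*, *Ocm*, *Chrna9*, *Chrna10*, *Ikzf2* and *Lmo7* were at their highest group mean. In the homozygous apical turn these genes were present at lower means, and none of the differences passed the test. *Slc26a5*, *Ocm*, *Chrna9* and *Chrna10* had their lowest group means in the wild-type middle and homozygous basal turns. Both homozygous middle libraries lay above each library of those groups. *Kcnma1* and *Kcnn2* did not follow this pattern and were above 2 scaled FPKM in each of the 12 libraries. In bulk tissue, fewer outer hair cells and less RNA per outer hair cell cannot be told apart. By immunofluorescence at P14, the paper reports intact hair cells and surrounding supporting cells in homozygous mice. It also reports that otoacoustic emissions, its measure of outer hair cell function, could not be evoked in them. Those are counts of cells and a measure of function, and not of RNA.

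**Figure D1:**
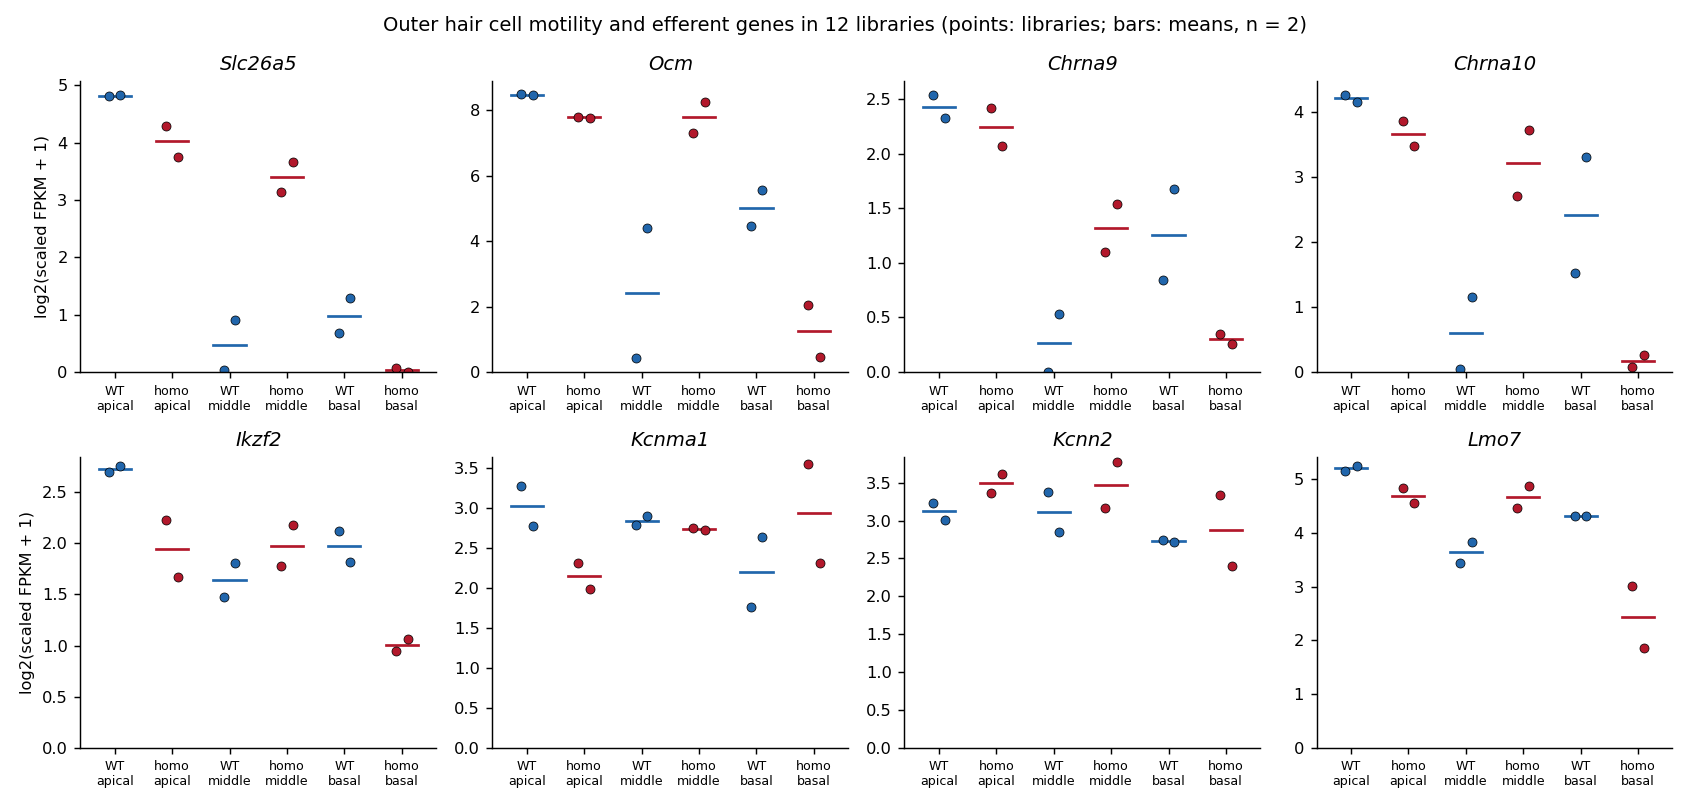
Level of the 8 members in each library, as log2(scaled FPKM + 1), by genotype (WT, wild-type, blue; homo, 35delG homozygous, red) and turn. Points are libraries and bars are means of 2. For *Slc26a5*, *Ocm*, *Chrna9* and *Chrna10* the means of the wild-type middle and homozygous basal groups lie lowest, while *Kcnma1* and *Kcnn2* stay within a narrow range.

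For the motor gene *Slc26a5*, the wild-type apical libraries had 27.1 and 27.5 scaled FPKM, and the homozygous apical libraries 18.5 and 12.5. The wild-type middle libraries had 0.0255 and 0.876, against 7.78 and 11.7 in the homozygous middle turn. Of the basal libraries, the wild-type ones had 0.594 and 1.44 and the homozygous ones 0.0509 and a value listed at 0. The genotypes did not overlap in any turn, with the homozygous libraries lower in the apical and basal turns and higher in the middle turn. In the middle turn *Slc26a5* rose in homozygous mice by 2.93 on the log2 scale (standard error 0.34, 95% interval 2.16 to 3.70, adjusted p = 0.00889 by limma), which is the change of log2(scaled FPKM + 1) and understates that of low genes. The apical change was −0.80 (adjusted p = 0.287 by limma) and −0.94 in the basal turn (adjusted p = 0.0873 by limma), and neither passed the threshold of 0.01. The call in the middle turn was kept with either wild-type basal library left out and lost with any of the other 10 libraries left out, at adjusted p of up to 0.0492 and changes of 2.50 to 3.37. In order of mean the groups ran from wild-type apical through homozygous apical, homozygous middle, wild-type basal and wild-type middle to homozygous basal. Of neighbors in this order, the homozygous apical and middle turns differed by −0.62 (95% interval −1.39 to 0.149, adjusted p = 1 by limma) and the wild-type middle and basal turns by 0.51 (95% interval −0.26 to 1.28, adjusted p = 0.538 by limma).

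*Ocm*, at chr5:144019804-144026599 on the minus strand with 327 coding nt, was the most abundant member. Its scaled FPKM were 360 and 353 in the wild-type apical turn and 221 and 219 in the homozygous apical turn. The wild-type middle libraries had 0.345 and 20.2, so the repeats themselves were far apart, while the homozygous middle libraries had 159 and 305. In the basal turn, the wild-type libraries had 21.2 and 46.6 and the homozygous libraries 3.15 and 0.388. As with prestin, the genotypes did not overlap in any turn, and the sign of the difference was opposite in the middle turn. The log2 fold change for the apical turn was −0.69 (adjusted p = 0.811 by limma), 5.37 in the middle turn (95% interval 2.91 to 7.83, adjusted p = 0.0399 by limma) and −3.76 in the basal turn (95% interval −6.22 to −1.30, adjusted p = 0.0437 by limma), none of which was called at 0.01. These p-values use the spread pooled over the 6 groups and not that of the apical repeats. The apical repeats differed by 2.10% (wild-type) and 0.966% (homozygous) of their means. Over the alternatives the lowest adjusted p of the apical change was 0.0878 by limma. The number of *Ocm* fragments per *Slc26a5* fragment, both per length, was 13.3 and 12.8 in the wild-type apical libraries, 11.96 and 17.5 in the homozygous apical libraries and 20.4 and 26.1 in the homozygous middle libraries. In the second wild-type basal library, with *Slc26a5* at 1.44 scaled FPKM, the ratio was 32.3, the highest of those given. This ratio was computed after the values were seen and is not given where *Slc26a5* was under 1 scaled FPKM.

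Both subunits of the efferent receptor were also highest in the wild-type apical turn, at lower levels than *Slc26a5*. *Chrna9* was at 4.803 and 4.01 scaled FPKM in the wild-type apical turn and at 4.33 and 3.20 in the homozygous apical turn, which overlap. In the middle turn it was listed at 0 and at 0.441 in wild-type libraries and was at 1.14 and 1.90 in homozygous libraries. In the basal turn the wild-type libraries had 0.790 and 2.19 and the homozygous libraries 0.274 and 0.197. The log2 fold change of *Chrna9* was −0.19, 1.053 and −0.953 for apical, middle and basal libraries, with adjusted p = 0.824, 0.0885 and 0.0690 by limma. The genotypes thus overlapped in the apical turn and were apart, in opposite directions, in the middle and basal turns, where no call was made.

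*Chrna10* was at 18.3 and 16.8 scaled FPKM in the wild-type apical libraries and at 13.6 and 10.1 in the homozygous apical libraries. The wild-type middle libraries had 0.0373 and 1.23, and the homozygous middle libraries 5.53 and 12.2. Of the basal libraries, the wild-type ones had 1.86 and 8.95 and the homozygous ones 0.0562 and 0.199. The homozygous libraries were lower in the apical and basal turns and higher in the middle turn, without overlap. The log2 fold change of *Chrna10* was −0.54 apically (adjusted p = 0.706 by limma), 2.61 (95% interval 1.29 to 3.94, adjusted p = 0.0467 by limma) in the middle turn and −2.25 (95% interval −3.57 to −0.92, adjusted p = 0.0305 by limma) in the basal turn. Where *Chrna9* was above 1 scaled FPKM, *Chrna10* was 3.14 to 6.44 times as high per length. The ratio was 3.80 and 4.21 in the wild-type apical libraries, 3.14 and 3.16 in the homozygous apical libraries, 4.85 and 6.44 in the homozygous middle libraries and 4.08 in the second wild-type basal library.

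*Ikzf2*, on the minus strand at chr1:69531214-69687245 with 1578 coding nt, varied less from lowest to highest library than the genes above. The apical libraries had 5.48 and 5.76 scaled FPKM for wild-type and 3.68 and 2.19 for homozygous mice. The middle turn had 1.78 and 2.50 for wild-type and 2.43 and 3.52 for homozygous mice, which overlap. The basal turn had 3.36 and 2.52 for wild-type and 0.932 and 1.10 for homozygous mice. The lowest libraries were those of the homozygous basal turn, at 0.932 and above. The log2 fold change for the apical turn was −0.78 (adjusted p = 0.172 by limma), 0.34 in the middle turn (adjusted p = 0.421 by limma) and −0.96 in the basal turn (95% interval −1.51 to −0.41, adjusted p = 0.0276 by limma).

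*Lmo7*, on the plus strand at chr14:101729957-101934710 with 31 exons and 5097 coding nt, was present in each library. It was at 34.8 and 37.0 scaled FPKM in the wild-type apical turn and at 27.6 and 22.5 in the homozygous apical turn. The wild-type middle libraries had 9.85 and 13.3, and the homozygous middle libraries 20.99 and 28.3. The wild-type basal libraries agreed closely at 19.0 and 18.8, whereas the homozygous basal libraries had 7.04 and 2.61. The genotypes did not overlap in any turn. *Lmo7* fell in the basal turn of homozygous mice by 1.89 on the log2 scale (standard error 0.33, 95% interval −2.65 to −1.13, adjusted p = 0.00894 by limma). The apical change was −0.51 (adjusted p = 0.499 by limma) and 1.03 in the middle turn (adjusted p = 0.103 by limma). The basal call was kept without the first homozygous basal library and lost without any of the other 11 libraries, at changes of −2.46 to −1.30 and adjusted p of up to 0.0409.

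The potassium channel genes behaved differently from the other members. *Kcnma1*, on the minus strand at chr14:23289431-24004859 with 30 exons, was at 8.66 and 5.83 scaled FPKM in the wild-type apical turn and at 3.97 and 2.95 in the homozygous apical turn. In the middle turn the wild-type libraries had 5.86 and 6.46 and the homozygous libraries 5.71 and 5.61. In the basal turn the wild-type libraries had 2.39 and 5.23 and the homozygous libraries 10.7 and 3.97, with the highest value of all 12 libraries in 1 of the repeats and overlap between the genotypes. The log2 fold change of *Kcnma1* for the apical turn was −0.87 (95% interval −1.81 to 0.0571), −0.10 in the middle turn (95% interval −1.03 to 0.829) and 0.73 in the basal turn (95% interval −0.20 to 1.66), with adjusted p = 0.336, 0.901 and 0.261 by limma. The value in the middle turn changed sign without scaling, to 0.0443.

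*Kcnn2*, on the plus strand at chr18:45269005-45686024 with 11 exons, ranged from 4.27 to 12.7 scaled FPKM, 2.97 times from lowest to highest, the smallest such ratio among the members. The apical libraries had 8.43 and 7.01 for wild-type and 9.29 and 11.3 for homozygous mice. The middle libraries had 9.43 and 6.21 for wild-type and 7.95 and 12.7 for homozygous mice. The basal libraries had 5.70 and 5.57 for wild-type and 9.15 and 4.27 for homozygous mice. The genotypes were apart in the apical turn, with the homozygous libraries higher, and overlapped in the middle and basal turns. The log2 fold change of *Kcnn2* for the apical turn was 0.37 (95% interval −0.38 to 1.12), 0.35 in the middle turn (95% interval −0.40 to 1.10) and 0.14 in the basal turn (95% interval −0.61 to 0.892), with adjusted p = 0.633, 0.548 and 0.809 by limma. Without the first homozygous basal library the basal value was −0.33. The homozygous basal turn, where prestin was at or near 0, thus still held both channel genes.

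Across the set, none of the 8 members was called in the apical turn, where 0.179% of the genes tested were called. In that turn 2 of 8 members had an unadjusted p under 0.05, as did 16.4% of the genes tested. In the middle turn 1 member was called, against 0.179% of the genes tested, and 5 had an unadjusted p under 0.05, against 25.4%. In the basal turn 1 member was called, against 4.29%, and 6 had an unadjusted p under 0.05, against 32.4%. Averaged over the 3 turns no member was called, against 0.376%, and 2 of 8 had an unadjusted p under 0.05, against 18.6% of the genes tested. The median log2 fold change of the members was −0.62, 1.04 and −0.96 in the apical, middle and basal turns, beside −0.03, 0.04 and −0.02 over all genes tested. In the apical turn 6 of 8 members lay below the wild-type pair in both homozygous libraries, as were 32.1% of the genes tested. In the middle turn 5 of 8 members were higher in both homozygous libraries, as were 31.3% of the genes tested. In the basal turn 6 of 8 were lower in both homozygous libraries, as were 27.8%. The members were chosen with earlier results of these data known, so that these counts describe the set and are not a test of it.

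The sign of the genotype difference changed between the middle and basal turns, and this difference was itself tested as the basal change minus the middle change. The members called were *Slc26a5*, *Ocm*, *Chrna10* and *Lmo7*, 4 of 8, against 8.91% of the genes tested. The difference was −3.87 for *Slc26a5* (95% interval −4.96 to −2.79, adjusted p = 0.00251 by limma). It was −9.13 for *Ocm* (95% interval −12.6 to −5.65, adjusted p = 0.00492 by limma). It was −4.86 for *Chrna10* (95% interval −6.73 to −2.98, adjusted p = 0.00511 by limma) and −2.92 for *Lmo7* (95% interval −3.99 to −1.84, adjusted p = 0.00449 by limma). *Chrna9* at −2.01 (adjusted p = 0.0144 by limma) and *Ikzf2* at −1.30 (adjusted p = 0.0277 by limma) had the same sign without being called. *Kcnma1* at 0.83 (adjusted p = 0.323 by limma) and *Kcnn2* at −0.21 (adjusted p = 0.769 by limma) were not called either. With each library left out in turn, the call of *Slc26a5* was kept without each of the 12 libraries. The call of *Lmo7* was lost without either wild-type apical, either wild-type middle, the first wild-type basal or the second homozygous middle library. The call of *Ocm* was kept without either wild-type middle or wild-type basal library and lost without any of the other 8. The call of *Chrna10* was kept without either wild-type basal, the second wild-type middle or the first homozygous middle library and lost without any of the other 8, and the adjusted p of these 3 genes stayed at or under 0.0198 throughout. Both ends of this contrast rest on the groups that stood apart in tissue content, the wild-type middle and homozygous basal libraries, and no value can be given without them. All 15 hair cell markers were also lower in the same contrast, with a median of −1.64 and 5 called. Their median genotype changes were −0.84, 0.59 and −1.31 in the apical, middle and basal turns, so the change of sign was not particular to the members. The 5 stria and spiral ligament markers had a median of −3.98 in this contrast, with none called and 4 at an unadjusted p under 0.05. The part of either list in the result was not tested. No member was called for the middle change minus the apical change, where 0% of genes were called and 6 members had an unadjusted p under 0.05 (8.05% of the genes tested). The basal change minus the apical change gave no call either, where 0.796% of genes were called and 2 members had an unadjusted p under 0.05 (28.4% of the genes tested).

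**Figure D2:**
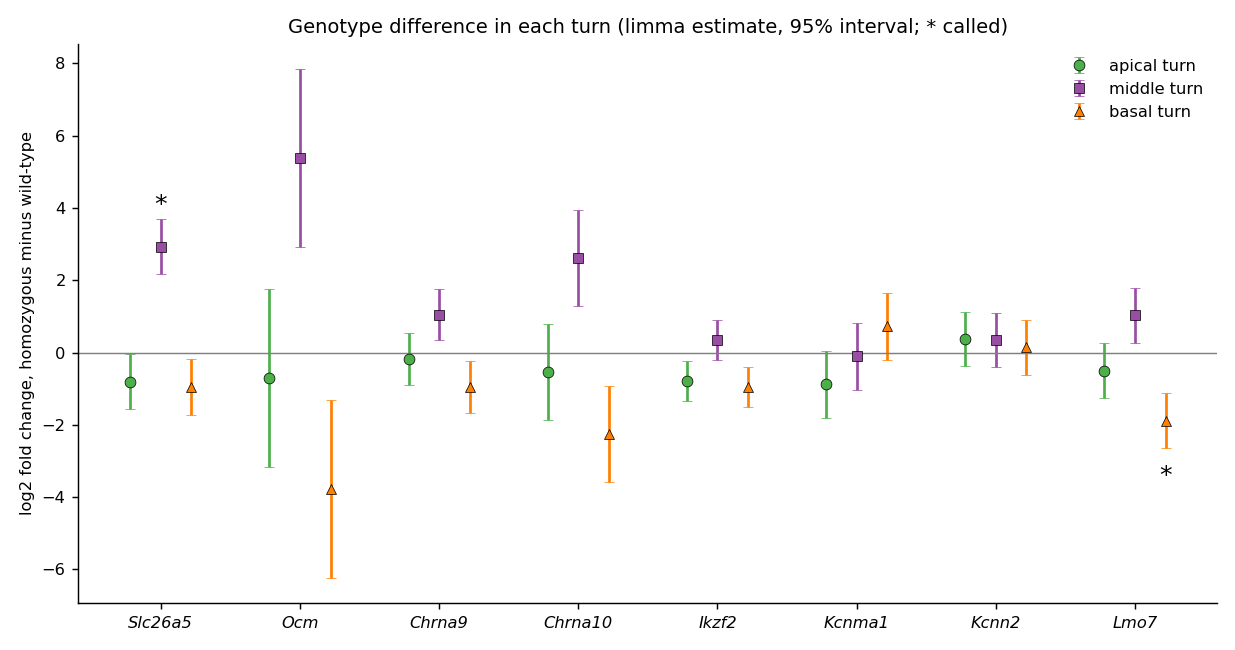
Change of each member in homozygous against wild-type libraries of the apical, middle and basal turns, on the log2(scaled FPKM + 1) scale. Symbols are limma estimates with 95% intervals, and asterisks mark the calls of *Slc26a5* in the middle turn (2.93) and of *Lmo7* in the basal turn (−1.89). The middle turn lies above 0 and the basal turn below 0 for 6 members, and the channel genes *Kcnma1* and *Kcnn2* differ from this.

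Along the cochlea of wild-type mice, *Slc26a5* fell by 4.35 on the log2 scale from the apical to the middle turn (95% interval −5.12 to −3.58, adjusted p = 0.00293 by limma) and by 3.84 from the apical to the basal turn (95% interval −4.61 to −3.07, adjusted p = 0.00549 by limma). It was the 1 member called in each of these comparisons, in each of which 0.0863% of genes were called. From the apical to the middle turn the estimates were −6.06 for *Ocm* (adjusted p = 0.0547), −3.61 for *Chrna10* (adjusted p = 0.0440), −2.17 for *Chrna9* (adjusted p = 0.0283) and −1.57 for *Lmo7* (adjusted p = 0.0849), all by limma. Between the wild-type middle and basal turns no member and 0% of all genes were called, and 3 members had an unadjusted p under 0.05, against 15.2% of genes. The wild-type basal against apical change uses neither the wild-type middle nor the homozygous basal libraries, but the wild-type basal repeats differed from each other in bone, neuron and stria markers. Fitted without the wild-type middle and homozygous basal libraries the change kept its size of −3.84 for *Slc26a5*, with an adjusted p = 0.0317 by limma that no longer passed. In homozygous mice no member and 0% of genes were called between the apical and middle turns, with 1 member at an unadjusted p under 0.05, against 2.65% of genes. From the apical to the basal turn 5 members fell, against 4.06% of genes called, namely *Slc26a5* by 3.99, *Ocm* by 6.53, *Chrna9* by 1.94, *Chrna10* by 3.50 and *Lmo7* by 2.27 (adjusted p = 0.00303, 0.00766, 0.00723, 0.00779 and 0.00580 by limma). From the middle to the basal turn 3 members fell, against 4.66% of genes called, namely *Slc26a5* by 3.37, *Ocm* by 6.53 and *Lmo7* by 2.24 (adjusted p = 0.00342, 0.00720 and 0.00554 by limma). With each of the 12 libraries left out in turn, the fall from the homozygous apical to the basal turn kept its call 7 times for *Slc26a5*, 5 times for *Lmo7*, 4 times for *Ocm* and 2 times each for *Chrna9* and *Chrna10*, where either wild-type basal library could be left out, and the highest adjusted p was 0.0670. The calls of *Slc26a5* between the wild-type apical and middle turns and between the wild-type apical and basal turns were kept 7 and 5 times, and both were lost without either wild-type apical or either homozygous basal library. The first was also lost without the first wild-type middle library, and the second without either homozygous apical or the second wild-type basal library. The fall from the homozygous middle to the basal turn kept its call 7 times for *Slc26a5*, 5 times for *Lmo7* and 4 times for *Ocm*. The comparisons along the cochlea share libraries with each other and with those between genotypes.

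To set the members beside the hair cell content of a library, the mean over 15 hair cell markers was subtracted from each member on the log2(scaled FPKM + 1) scale. That mean was 3.33 and 3.36 in the wild-type apical libraries, 2.80 and 2.43 in the homozygous apical libraries and 0.946 and 1.10 in the homozygous basal libraries. *Slc26a5* lay 1.48 and 1.47 above it in the wild-type apical turn and 1.49 and 1.32 above it in the homozygous apical turn, so the apical genotypes lay close together for this gene. *Ocm* lay 5.17 and 5.11 above the mean in the wild-type apical turn and 5.0003 and 5.35 above it in the homozygous apical turn. In the middle turn *Slc26a5* lay at −1.24 and −1.34 in wild-type and at 0.93 and 1.02 in homozygous libraries. In the basal turn it lay at −1.82 and −1.33 in wild-type and at −0.87 and −1.10 in homozygous libraries, so that the homozygous libraries were the higher ones on this scale, with prestin near 0 in them. The genotypes of *Slc26a5* did not overlap in the middle turn on this scale. The gene was at 0.0255 and 0.876 scaled FPKM in the wild-type middle libraries, near the floor. The marker mean was 1.28 and 2.25 there, and a member at 0 lies at minus that mean. The markers cover inner and outer hair cells together, so the subtraction does not take out the content of outer hair cells. The median over the 8 members lay 0.44 and 0.22 above the mean in the wild-type apical libraries and 0.82 and 1.11 above it in the homozygous apical libraries. No test was made on this scale, and *Strc*, a marker in the mean, is also mainly an outer hair cell gene.

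**Figure D3:**
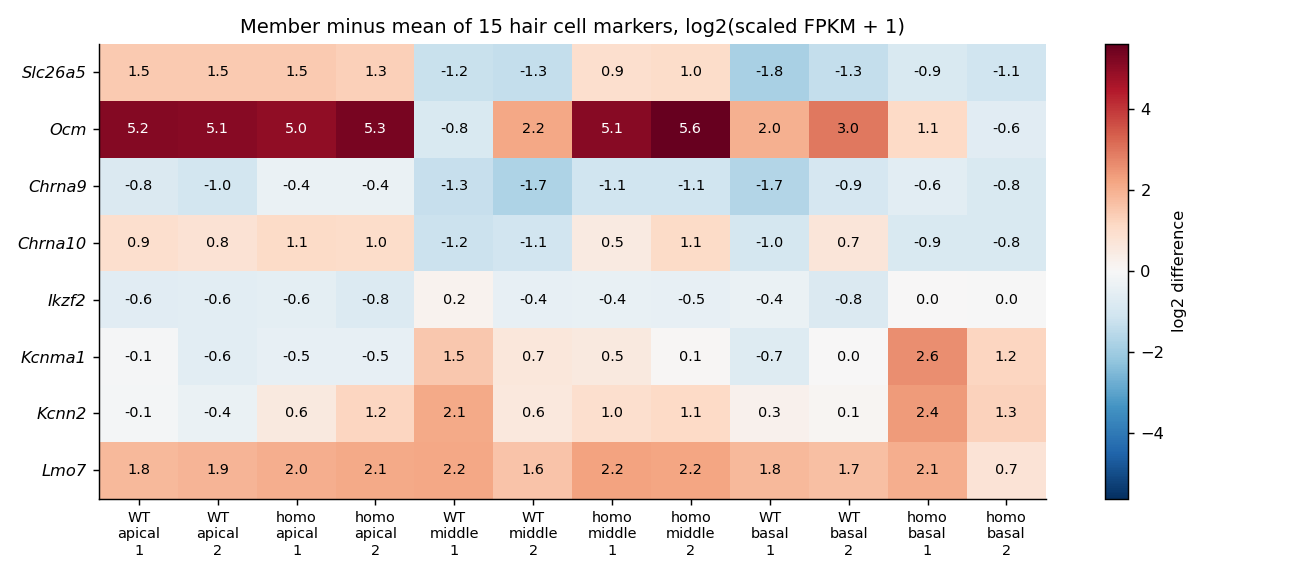
Each member minus the mean of 15 hair cell markers in the same library, in log2(scaled FPKM + 1) units, with red above and blue below that mean. *Slc26a5* and *Chrna10* are above the mean in the apical and homozygous middle libraries and mostly below it in the others, and *Ocm* reaches 5.61 in the second homozygous middle library.

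The wild-type middle and basal libraries held inner hair cell genes while prestin was low. *Otof* was at 59.8 and 61.7 scaled FPKM in the wild-type apical turn, at 9.42 and 25.2 in the wild-type middle turn and at 32.2 and 20.7 in the wild-type basal turn. It was at 23.7 and 13.9 in the homozygous apical turn and at 14.2 and 19.3 in the homozygous middle turn. The ratio of *Slc26a5* to *Otof*, both per length, was 0.453 and 0.446 in the wild-type apical turn and 0.782 and 0.901 in the homozygous apical turn. It was 0.00271 and 0.0348 in the wild-type middle turn against 0.549 and 0.607 in the homozygous middle turn. In the wild-type basal turn it was 0.0185 and 0.0697. The wild-type middle libraries therefore held otoferlin at levels that overlap with those of the homozygous middle libraries, and prestin at levels that do not. The ratio is not given for the homozygous basal turn, where both genes were near 0, and the pair was chosen after the values were seen.

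**Figure D4:**
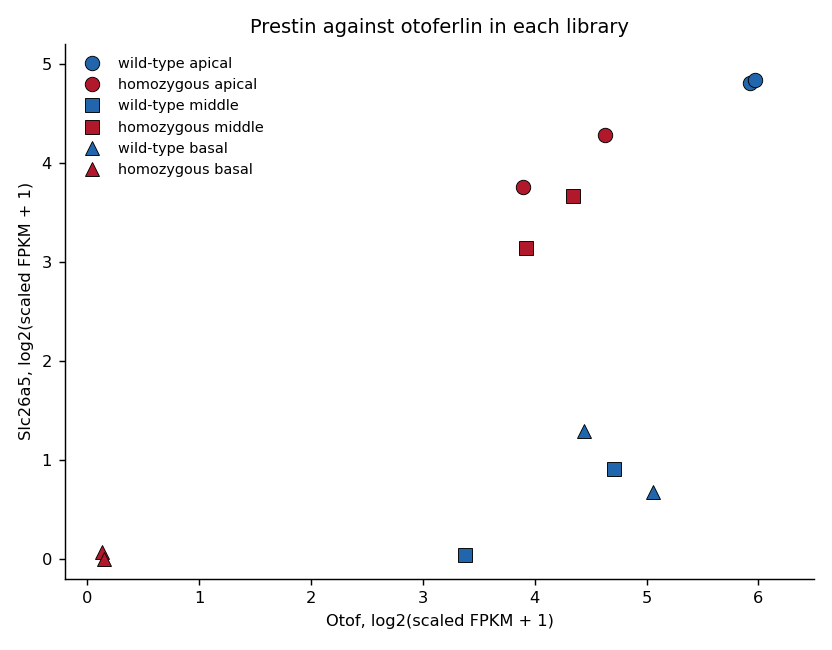
*Slc26a5* (outer hair cells) against *Otof* (inner hair cells) in each of the 12 libraries, both as log2(scaled FPKM + 1). Color gives the genotype and shape the turn. The apical and homozygous middle libraries lie high on both axes, the wild-type middle and basal libraries are low on the *Slc26a5* axis alone, and the homozygous basal libraries lie near the origin.

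Among 9 other genes of outer hair cells, none was called between genotypes in any turn, with 3, 2 and 2 genes at an unadjusted p under 0.05 in the apical, middle and basal turns and median changes of −0.56, 0.77 and −0.35. *Sri*, which encodes the calcium-binding protein sorcin and is widely transcribed, lay between 21.6 and 37.4 scaled FPKM in the 12 libraries. *Lbh*, a transcriptional regulator, was at 41.8 and 41.5 in the wild-type apical turn, 18.6 and 12.3 in the wild-type middle turn and 29.5 and 33.0 in the homozygous middle turn. *Ppp1r17*, a phosphatase inhibitor, was at 11.8 and 16.5 in the wild-type apical turn and at 4.88 and 3.67 in the homozygous apical turn, and elsewhere it was at most 1.56. Its apical genotype difference was −1.52 (adjusted p = 0.0536 by limma). In wild-type mice *Ppp1r17* fell by 3.52 from the apical to the middle turn and by 3.56 from the apical to the basal turn (adjusted p = 0.00305 and 0.00378 by limma). *Strip2* fell by 2.63 from the wild-type apical to the basal turn (adjusted p = 0.00988 by limma). *Aqp11*, a water channel gene, fell by 2.33 from the homozygous apical to the basal turn (adjusted p = 0.00585 by limma).

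Of the cholinergic efferent pathway outside the receptor, 5 genes were tested and none was called between genotypes in any turn, with 2, 2 and 3 genes at an unadjusted p under 0.05. *Ache*, the acetylcholinesterase gene, was at 20.6 and 34.5 scaled FPKM in the homozygous basal turn and at 0.399 to 15.03 in the other libraries. The basal genotype change of *Ache* was 2.92 (adjusted p = 0.0360 by limma), opposite in sign to those of *Chrna9* and *Chrna10*. *Tmie*, which belongs to the mechanotransduction complex of hair cells, lay between 2.35 and 8.52. Among the partners of the channels, 8 BK and SK subunit genes were tested, and 1 was called, as higher, in the homozygous basal turn. It was *Lrrc55*, an auxiliary subunit of BK channels, with 38.7 and 15.9 scaled FPKM in the homozygous basal against 1.42 and 4.76 in the wild-type basal libraries, a rise of 2.79 on the log2 scale (adjusted p = 0.00980 by limma). *Kcnmb4*, the BK beta subunit of neurons, was at 6.49 and 8.73 in the homozygous basal turn against 2.72 and 2.55 in wild-type, with a change of 1.23 (adjusted p = 0.0116 by limma). *Lrrc55* and *Kcnmb4* were both called for the basal change minus the middle change, at 4.11 and 2.10 (adjusted p = 0.00580 and 0.00428 by limma). The sums of the neuron markers were highest in the same homozygous basal libraries.

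Relatives of the members gave few calls. Of 7 other nicotinic receptor subunit genes tested, *Chrnb2*, a subunit of neurons, rose in the homozygous basal turn by 1.81 (adjusted p = 0.00831 by limma), from 0.767 and 1.91 scaled FPKM in wild-type to 9.20 and 5.17 in homozygous libraries. *Chrnb1*, the muscle subunit, lay between 2.31 and 7.90 across the libraries. None of 5 other SLC26 transporter genes tested was called between genotypes in a turn, with 2, 0 and 1 genes at an unadjusted p under 0.05. The highest were *Slc26a4*, which encodes pendrin, at 32.9 and 32.0 in the wild-type apical and 90.8 and 101.8 in the homozygous apical turn, and *Slc26a7* at 42.8 and 44.5 against 14.6 and 6.43. None of 4 other Ikaros family genes was called, with 0, 1 and 0 genes at an unadjusted p under 0.05, and *Ikzf5* stayed between 4.99 and 8.58. *Ikzf1*, a gene of blood cells, was at 14.2 in the first homozygous middle library and at most 3.38 elsewhere.

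The genes whose levels were most like those of *Slc26a5* over the 12 libraries, by Pearson's r on the log2(scaled FPKM + 1) scale and given as a description, were *Strc* (0.990), *Notumos* (0.978), *F12* (0.970), *Fgfr3* (0.968) and *Fam83g* (0.958). *Strc* encodes stereocilin, which ties outer hair cell stereocilia to each other and to the tectorial membrane, and *Fgfr3* marks pillar and Deiters cells, the supporting cells beside outer hair cells. *Strc* ranged from 0.0455 to 14.6 scaled FPKM and *Fgfr3* from 3.79 to 50.3. Other pillar and Deiters cell markers did not all vary like *Fgfr3*. *Prox1* was at 11.99 and 3.84 in the homozygous basal and 7.67 and 4.66 in the wild-type middle libraries. It was at 1.10 and 0.353 in the homozygous middle libraries. *Sox2* lay between 6.12 and 15.8 and *Slc1a3* between 26.1 and 66.9. For the basal change minus the middle change, 2 of the 4 such markers tested were higher and 2 lower, with 1 called each way. For *Kcnma1* the closest genes were *Cdk14* (0.855), *Trmt13* (0.844), *Gm42547* (0.843), *Gfod1* (0.838) and *Arhgap31* (0.827), with no outer hair cell gene of the lists among them. Among the members, r with *Slc26a5* was 0.93 for *Ocm*, 0.92 for *Chrna9*, 0.93 for *Chrna10*, 0.84 for *Lmo7* and 0.79 for *Ikzf2*. It was 0.47 for *Kcnn2* and 0.00 for *Kcnma1*. The 12 points share turns and genotypes and include the 4 wild-type middle and homozygous basal libraries, so these values describe how libraries differ in content as well as how genes vary.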

How the data were processed

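RNA from the turns was purified by the authors with a miRNeasy kit and sequenced as paired reads on an Illumina NovaSeq. Reads were cleaned by fastp 0.20.0 and mapped to mm10 by STAR 2.7.3a, and StringTie 2.0 gave FPKM from the uniquely mapped ones (versions from the submitters' processing notes). The deposited table holds these FPKM for 37432 genes in 12 libraries. The authors' featureCounts 2.0.0 counts and DESeq2 1.30.0 results were not used here. FPKM keep no depth, so the spread between 2 repeats is the measure of precision.

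Each library was divided by its median-of-ratios factor (0.917 to 1.057), taken from the 11552 genes that reached 1 FPKM throughout. A pseudocount of 1 was added before taking log2. limma 3.58.1 in R 4.3.3 fitted 6 group means, with a trend, to 16215 genes that reached 1 FPKM in 2 libraries, and gave two-sided p-values with Benjamini-Hochberg adjustment over these genes. A call needed a fold change over 2 and adjusted p under 0.01, the thresholds of the study. The fit had 6 residual and 2.783 prior degrees of freedom. An exact permutation test of 2 against 2 libraries cannot go below p = 0.333. The fit was tested on simulated data. Figures were drawn with matplotlib 3.10.9.

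The members and gene lists were chosen with earlier results of these data known. Named genes were the 8 members, the 2 genes of highest mean in each related list, genes called in a described comparison (at most 4 a list), and the 5 genes most correlated with *Slc26a5* and with *Kcnma1*. *Kcnmb4* and *Ache* fall under this rule. *Otof*, *Pou4f3*, *Coch*, *Kcne1*, *Kcnq1*, *Tyr*, *Pou3f4*, *Strc*, *Fgfr3*, *Prox1*, *Sox2*, *Slc1a3*, *Hes5* and *Gjb2* were named for tissue content, likeness or genotype. Alternatives were pseudocounts of 0.1 and 0.01, no filter and a filter of 5 FPKM, FPKM as deposited, quantile normalization, no trend, library weights, a replicate block, an adjusted p under 0.05, fits of 1 turn, and each library left out. Annotation was GENCODE M21 (GRCm38), which holds the identifiers of all 8 members, 7 with the same version and 3 with the same start and end.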

Additional observations from a re-analysis of the deposited data

Results flagged for a closer look

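For 4 of 8 members the genotype difference was not the same in the middle and basal turns by a test of that difference itself (limma, basal change minus middle change, on the log2 scale). In that test 8.91% of the genes tested were called. The difference was −3.87 for *Slc26a5*, −9.13 for *Ocm*, −4.86 for *Chrna10* and −2.92 for *Lmo7*. Each of the 4 was higher in both homozygous libraries of the middle turn and lower in both homozygous libraries of the basal turn. The 15 hair cell markers had a median of −1.64 in the same contrast, with 5 called, each as lower. The wild-type middle and homozygous basal groups, on which this contrast rests, also had the highest sums of neuron markers. The part of these in the difference was not tested. Groups of 2 libraries are too small for a test of a single library that is far from the others.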

How the results depend on the processing

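The labels do not tie repeat numbers to animals, and the deviations of same-numbered libraries correlated above 0.1 in 4 of 15 pairs of groups (range −0.432 to 0.45), so the numbers were not treated as pairs. With a replicate block the members called were 0 for the genotype in the middle turn, 0 for it in the basal turn, 4 for the basal minus middle difference, 1 for wild-type middle against apical, 0 for wild-type basal against apical, and 1 for each of homozygous basal against apical and homozygous basal against middle.

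Main counts of members called were 1 (genotype, middle), 1 (genotype, basal), 4 (basal minus middle difference), 1 (wild-type middle against apical), 1 (wild-type basal against apical), 5 (homozygous basal against apical) and 3 (homozygous basal against middle). In the same order, 0.179%, 4.29%, 8.91%, 0.0863%, 0.0863%, 4.06% and 4.66% of the genes tested were called. The shares of all genes under the alternatives, with the replicate block among them, are not given here. The counts under them therefore describe the settings and are not a result about the members. With a pseudocount of 0.1 or of 0.01 the counts became 0 for the genotype in the middle and basal turns and for both wild-type comparisons, and 2 for homozygous basal against apical. With no filter they became 0 for both genotype comparisons and for wild-type basal against apical, and 1 for the basal minus middle difference and both homozygous comparisons. A filter of 5 FPKM gave 0 in the middle turn, and no trend gave 0 in the basal turn. Library weights gave 0 in the basal turn and for wild-type basal against apical, and 4 for wild-type middle against apical. Fits of the middle or of the basal libraries alone gave 0. An adjusted p under 0.05 gave 3 in the middle turn, 3 in the basal turn and 3 for wild-type middle against apical. Without the wild-type middle and homozygous basal libraries, an alternative chosen after seeing the data, wild-type basal against apical gave 0. With each library left out in turn, the counts ran from 0 to 1 for the middle and basal genotype comparisons and for both wild-type comparisons, from 1 to 4 for the basal minus middle difference, from 0 to 5 for homozygous basal against apical and from 0 to 4 for homozygous basal against middle. With a pseudocount of 0.1 the median of the members above the hair cell mean moved to 1.18 in the homozygous apical, 1.17 in the homozygous middle and 0.866 in the homozygous basal turn. The direction changed for *Kcnma1* and *Kcnn2* alone, in 12 of 1440 member results, none of them called. For *Kcnma1* these were 0.0443 in the middle genotype comparison with FPKM as deposited, 0.0634 for wild-type middle against apical without the first wild-type apical library, and −0.425 for homozygous basal against middle without the first homozygous basal library. For *Kcnn2* they were −0.330 in the basal genotype comparison without the first homozygous basal library, 0.280, 0.0950 and 0.0575 for the basal minus middle difference without the second homozygous basal, homozygous middle or wild-type middle library, 0.0354 for wild-type middle against apical with quantile normalization, and 0.00741, 0.0117, 0.111 and 0.262 for the same comparison without the first or second homozygous basal, first wild-type apical or second wild-type middle library. Over all libraries left out in turn, *Kcnn2* ran from −0.330 to 0.624 (basal genotype), −0.681 to 0.280 (basal minus middle difference) and −0.267 to 0.262 (wild-type middle against apical), and *Kcnma1* from −0.437 to 0.0634 (wild-type middle against apical) and −0.425 to 0.823 (homozygous basal against middle). Of the other member results 1248 kept direction and side of the threshold, 161 lost and 19 gained a call. Depth is unknown and 2 libraries a group limit each count.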
